A study of Mus musculus with 6 samples.

Results

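Cxcl9, Cxcl10 and their receptor Cxcr3 were followed through every cell class of mouse skin. These 3 genes were taken by name from the 16158 genes that the 6 deposited tables share. The rule itself uses no measured value, but the genes were chosen with earlier results of these data known. Skin cells came from 6 NINJA mice aged 6 to 12 weeks, a strain in which an antigen can be switched on in the body, and in every mouse the skin that was dissociated had been treated with 4-OH-Tam (4-hydroxytamoxifen). The 3 groups of 2 mice each were NO_AG (antigen off), AG (antigen on) and AG_CPI (antigen on, with the treatment that the labels call CPI and do not spell out, in a series whose title concerns PD-1). Before sequencing, the mice were checked against what was foreseen for their group, by visible skin disease and by the number in skin and the function of P14 CD8 T cells, which are T cells with 1 transgenic receptor, so they are not a random draw. The promoter, the Cre and the time between induction and harvest are not given in the sources used here, and no sort of the cells is named. RNA was read with droplet 5' single-cell sequencing, in which each captured transcript is counted once through a molecular tag, the UMI.

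CXCL9 and CXCL10 are small secreted chemokines that draw T cells, and both act through the same receptor, CXCR3, which is carried by effector and memory CD8 T cells, by Th1-type CD4 T cells and by a subset of regulatory T cells. Interferon-gamma switches on both ligand genes, Cxcl10 also answers to type I interferon and to NF-kappa B signals, and in skin both keratinocytes and myeloid cells can make them. Cxcl11, the remaining ligand of the receptor, was not used here.

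The genomic setting of the ligands is shown first because the pair lies side by side and is read against interferon-inducible genes below. In the mm10 assembly (GENCODE annotation) Cxcl9 (ENSMUSG00000029417.9) spans chr5:92321347-92328079 and Cxcl10 (ENSMUSG00000034855.13) spans chr5:92346638-92348889, both on the minus strand with 18558 bases between them. Cxcr3 (ENSMUSG00000050232.6) lies at chrX:101731535-101734269, also on the minus strand. The 250 bases before the RefSeq start of each ligand (GRCm38.p6, minus strand, chr5:92328080-92328329 for Cxcl9 and chr5:92348890-92349139 for Cxcl10) are printed 5′ to 3′, with capitals where a searched motif was found:
Cxcl9: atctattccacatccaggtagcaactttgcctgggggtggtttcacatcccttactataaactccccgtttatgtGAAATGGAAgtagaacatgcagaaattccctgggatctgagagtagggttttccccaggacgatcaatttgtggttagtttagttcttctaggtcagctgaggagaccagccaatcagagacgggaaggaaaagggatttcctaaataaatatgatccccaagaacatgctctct
Cxcl10: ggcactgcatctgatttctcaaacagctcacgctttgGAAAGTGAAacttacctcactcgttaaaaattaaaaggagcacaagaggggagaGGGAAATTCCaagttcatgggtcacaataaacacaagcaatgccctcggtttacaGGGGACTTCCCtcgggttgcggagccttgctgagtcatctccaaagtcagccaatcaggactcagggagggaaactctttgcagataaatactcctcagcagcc

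Each ligand window held 1 match of the interferon-stimulated element GAAANNGAA, searched on both strands. In Cxcl9 it lay 175 to 167 bases before the start and in Cxcl10 213 to 205 bases before it. Cxcl10 also held matches of the kappa B consensus, at 159 to 150 bases and, overlapping each other, at 104 to 95 and 103 to 94 bases before the start. The gamma-activated site TTCNNNGAA was in neither window, and the window of Cxcr3 held none of these letters. Of 32851 promoter windows of this length, 7.129% held the first motif, 7.251% the kappa B consensus and 7.02% the gamma-activated site. A match describes letters in a window and is no measured binding site.

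The libraries held 21178 cells, 1736 to 4972 per mouse, and 5903724 to 24656382 UMIs per mouse. The median cell held 4249 and 4744 UMIs in the NO_AG mice, 3475 and 2613 in the AG mice, and 2527 and 2779 in the AG_CPI mice, so depth was lower with antigen and shares of cells are also given after thinning each cell to 1500 UMIs. After filters 20466 cells remained in 51 clusters, which were named by fixed markers ("X-like"). The 3 genes and all genes of the lists below were kept out of the genes that built the clusters. Library pairs shared 5 to 35 cell barcodes. In the keratinocyte-like class all 19 keratinocyte markers were present in every mouse, with a summed level of 444 to 627 UMIs per 10000, and the macrophage-like class held 13 or 14 of the 14 macrophage markers per mouse with a summed level of 162 to 279. CD8 T cells had 11 of 12 alpha-beta T cell markers in every mouse, the absent one being Cd4 by the gate. Mice differed strongly in cell make-up: keratinocyte-like cells numbered 2240 and 1795 in NO_AG, 1096 and 1940 in AG, then 191 and 250 in AG_CPI, while CD8 T cells numbered 115 and 370, 971 and 767, and 1118 and 1210. Nothing in the labels names a batch.

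Cxcl9, the ligand with more UMIs in every library but NO_AG mouse 2, rose in keratinocyte-like cells when antigen was on. Its mean level, in UMIs per 10000 UMIs of a cell, was 0.447 and 0.521 in the NO_AG mice, 3.99 and 4.29 in the AG mice, and 3.42 and 3.47 in the AG_CPI mice. Both antigen groups lay far above NO_AG with no overlap, and the 2 mice of each group lay close together, in AG_CPI only with every cluster counted. The group means were 0.484 ± 0.0519 (SD, n = 2), 4.14 ± 0.211 (SD, n = 2) and 3.45 ± 0.0325 (SD, n = 2). The AG against NO_AG difference was 2.90 on the log2(mean + 0.1) scale (SE 0.153, limma adjusted p = 0.000261), in a comparison where 0.558% of 8244 genes were called. AG_CPI against NO_AG gave 2.61 (limma adjusted p = 0.000596, 0.861% of genes called). AG_CPI against AG gave -0.29 (SE 0.153, limma adjusted p = 0.561, 0.0364% of genes called), which did not pass. All p-values measure the spread between these mice, 2 per group.

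The share of keratinocyte-like cells with a Cxcl9 UMI moved in the same direction as the level. It was 2.90% and 6.41% in NO_AG, 27.6% and 49.3% in AG, then 21.5% and 26.8% in AG_CPI, and after thinning 1.25% and 3.06%, 16.4% and 36.3%, and 15.2% and 20%. CD8 T cells, which should lack this ligand, showed 0 of 115 cells (a count that allows up to 2.61%) and 0.27% in NO_AG, 2.06% and 3.39% in AG, then 1.79% and 1.40% in AG_CPI. The keratinocyte shares therefore stood well above the T cell shares in both antigen groups. Cxcl9 UMIs were unevenly spread over these cells: the 10% of keratinocyte-like cells with the most Cxcl9 UMIs carried 87.4% and 62.8% of the class total in the AG mice and 87.7% and 85.6% in the AG_CPI mice, and 1 cell of AG_CPI mouse 2 carried 218 UMIs. By the same count the top 10% of macrophage-like cells carried 44.3% and 54.4% in AG and 38.7% and 42.4% in AG_CPI.

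Macrophage RNA in these cells was measured beside the result. The summed level of the 14 macrophage markers in keratinocyte-like cells was 0.0784 and 0.141 in NO_AG, 0.136 and 4.39 in AG, then 2.95 and 0.794 in AG_CPI, against at least 162 in macrophage-like cells. In AG mouse 1 the sum lay between those of the NO_AG mice, beside a Cxcl9 level of 3.99. The part of macrophage RNA in the Cxcl9 level of the class was not tested. In AG mouse 2 most of it lay in the keratinocytes marked by stress keratins (Krt6a, Krt16), 1030 of whose cells came from that mouse, and C1q genes were among the leading genes of their main cluster. Without the 6 keratinocyte clusters of which over 90% of cells came from AG mouse 2, the Cxcl9 levels were 0.447 and 0.519, 3.96 and 4.03, and 2.93 and 3.35. In AG_CPI mouse 2 much of the Cxcl9 lay in cluster 43, 40 of its 250 keratinocyte-like cells and found in that mouse alone, where the level was 11.9. Without the 10 clusters of which over 90% of cells came from any 1 mouse, Cxcl9 was 0.447 and 0.462 in NO_AG, 3.97 and 4.03 in AG, then 2.93 and 1.55 in AG_CPI. AG against NO_AG then gave 2.92 (adjusted p = 0.00406), AG_CPI against NO_AG 1.99 (0.0234) and AG_CPI against AG -0.93 (0.319), which still did not pass.

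Cxcl10 in keratinocyte-like cells stood at a lower level than Cxcl9 in every mouse but NO_AG mouse 2, and the AG_CPI mice differed more. Its mean was 0.285 and 0.572 in NO_AG, 2.29 and 2.30 in AG, then 2.32 and 0.970 in AG_CPI. No NO_AG mouse reached either antigen group, but AG_CPI mouse 2 lay well below the other 3 mice with antigen. AG against NO_AG gave a log2 difference of 2.28 (SE 0.388, limma adjusted p = 0.0663), short of the threshold. It passed with UMIs summed per class before scaling (2.36, adjusted p = 0.0056), with finer clusters (2.27, adjusted p = 0.0447), without the 10 clusters mostly from 1 mouse (2.03, adjusted p = 0.0444) and without NO_AG mouse 2 (2.66, adjusted p = 0.0326). AG_CPI against AG gave -0.61 (SE 0.388, limma adjusted p = 0.619).

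**Figure D1:**
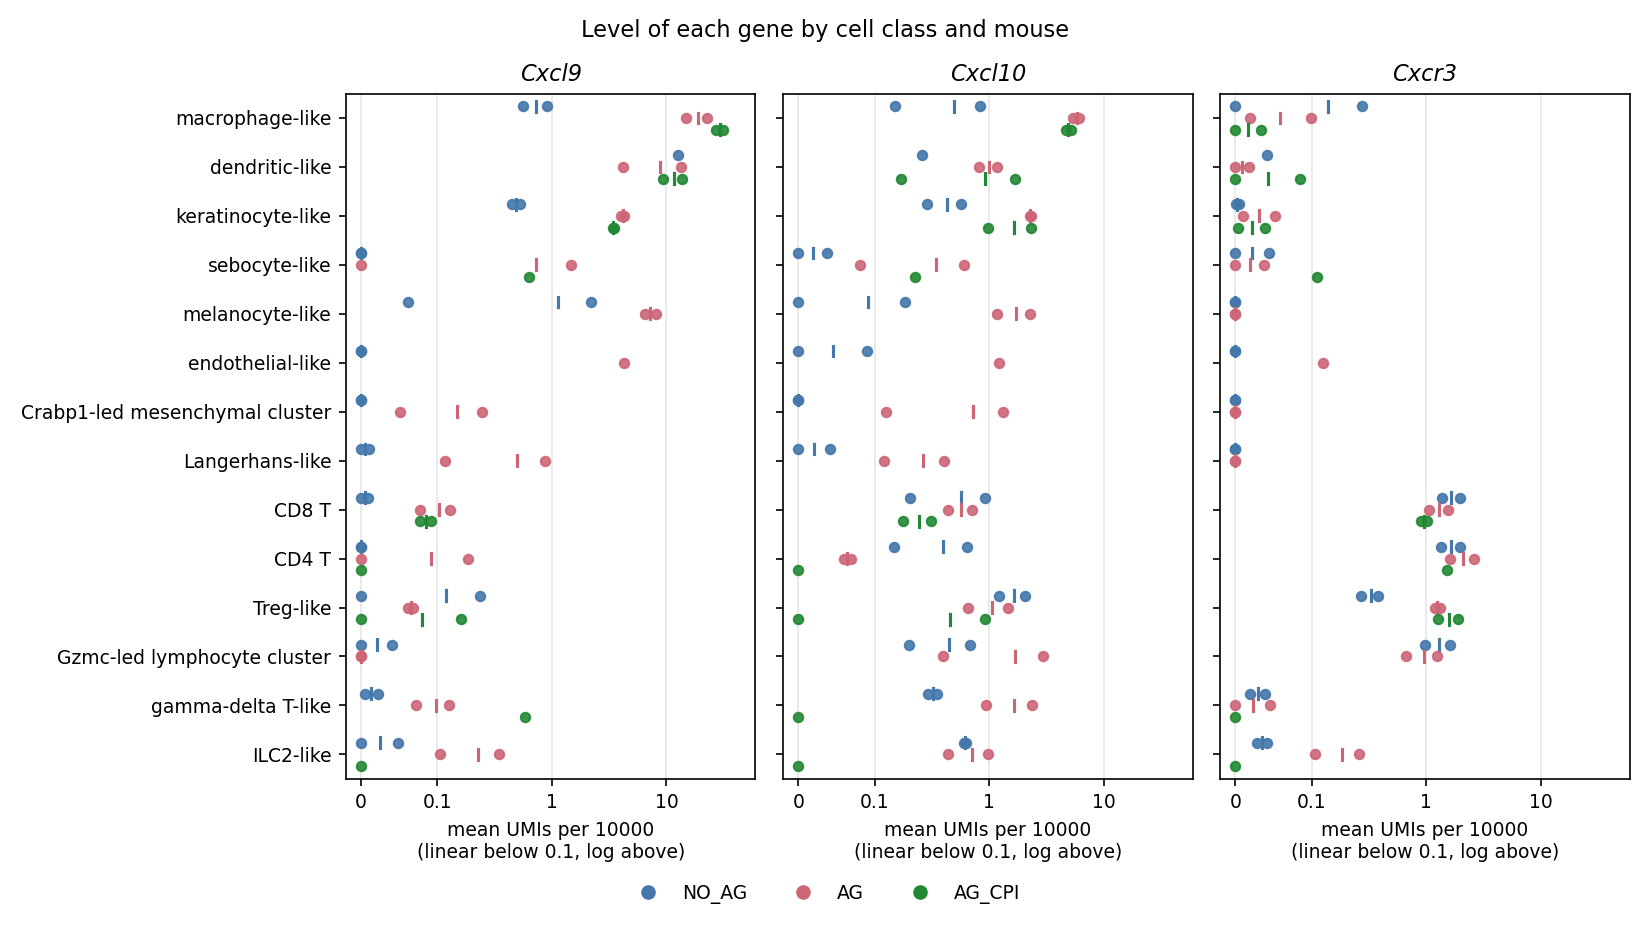
Mean level of Cxcl9, Cxcl10 and Cxcr3 in UMIs per 10000 UMIs of a cell (horizontal axis, linear below 0.1 and logarithmic above) in each cell class with at least 10 cells in the mouse; each point is 1 mouse and each bar the group mean. Cxcl9 sits highest in macrophage-like cells of the AG and AG_CPI mice, with AG at 14.8 and 22.8, with dendritic-like, melanocyte-like and keratinocyte-like cells of the AG mice below at 3.99 to 13.5, and Cxcr3 lies mainly in the T cell classes and the Gzmc-led lymphocytes.

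The rise was not the same in every keratinocyte state by value. In basal interfollicular keratinocyte-like cells, the stem-cell layer of the epidermis, Cxcl9 stood at 0.207 and 0.140 in NO_AG and at 9.04 and 4.95 in AG. The AG against NO_AG difference in basal cells was 4.57 (SE 0.406, limma adjusted p = 0.0437, 0.15% of 7331 genes called). Cxcl10 in the same basal cells went from 0.482 and 0.220 to 5.82 and 5.24, a log2 difference of 3.62 (SE 0.361, limma adjusted p = 0.0545). For both ligands the NO_AG and AG mice were widely apart, and only the Cxcl9 change passed. The Cxcl9 call was lost with no filter (adjusted p = 0.245), a pseudocount of 0.02 (0.089) or thinning (0.158), and the Cxcl10 value passed with a pseudocount of 0.5 (2.78, adjusted p = 0.0173), with the deposited scaling alone (0.0356) and with summed UMIs (0.0257). Fits without 1 mouse gave 4.03 to 5.09 for Cxcl9 and 3.16 to 4.07 for Cxcl10, but they have 1 residual degree of freedom and called 20 to 4623 genes against 11 with all mice, so their p-values are not given. The basal cells of the 2 groups lay mostly in different clusters: 555 of 559 and 366 of 370 NO_AG cells were in cluster 7, where Cxcl9 was 0.0983 and 0.0978, and 0.139 in AG mouse 1. Of the AG cells, 98 of 156 and 21 of 24 were in cluster 25, where it was 14.3 and 5.42, and where 4 cells of each NO_AG mouse held 15.3 and 3.97. Macrophage markers summed to at most 0.541 in any basal sample.

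Cycling keratinocyte-like cells, marked by Mki67 and Top2a, also carried both ligands. Cxcl9 was 0.617 and 0.475 in NO_AG and 7.80 and 6.10 in AG, a difference of 3.46 (SE 0.249, limma adjusted p = 0.00177, 0.448% of 6927 genes called). Cxcl10 was 0.576 and 0.565 in NO_AG and 6.28 and 3.07 in AG, a difference of 2.76 (SE 0.338, limma adjusted p = 0.0191). Both ligands rose with no overlap between groups, the Cxcl10 call being lost with no filter (adjusted p = 0.211), and macrophage markers in cycling cells summed to 0.0249 and 0.0385 in NO_AG and 0.0675 and 0.428 in AG.

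Hair follicle states differed from each other by value. Upper hair follicle keratinocyte-like cells already held Cxcl9 at 0.965 and 1.52 in NO_AG, and at 3.17 and 3.14 in AG, a difference of 1.34 that did not pass (SE 0.378, limma adjusted p = 0.328, 0.381% of 7611 genes called). Their Cxcl10 overlapped between groups, with 0.355 and 1.69 in NO_AG and 1.58 and 1.19 in AG (log2 difference 0.74, limma adjusted p = 0.911). In bulge or germ keratinocyte-like cells, the stem-cell part of the follicle, Cxcl9 was 0.147 and 0.0804 in NO_AG and 1.89 and 4.24 in AG. That difference of 3.86 (SE 0.597) had a limma adjusted p of 0.243, in a comparison where limma called 0.0% of 8204 genes and 107 genes had an unadjusted p under 0.05. It passed with finer clusters (3.68, adjusted p = 0.00574). The difference between basal and upper follicle cells in their response was itself tested: it was 3.24 for Cxcl9 (SE 0.436, limma adjusted p = 0.138, 0.0124% of genes called) and 2.88 for Cxcl10 (adjusted p = 0.59), and neither passed.

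Suprabasal keratinocyte-like cells were the most uneven. Cxcl9 was 0 and 0.498 in NO_AG, 2.47 and 4.74 in AG, then 8.34 and 1.09 in AG_CPI. Groups with antigen were above NO_AG in value, the AG_CPI mice lay far apart, and the AG against NO_AG difference of 3.90 did not pass (SE 0.981, limma adjusted p = 0.627, 0.027% of 7415 genes called). In NO_AG mouse 1, no Cxcl9 UMI was seen in 251 suprabasal cells. Suprabasal cells lay in different clusters by mouse. Of NO_AG mouse 2, 199 of 460 were in cluster 12, where Cxcl9 was 0.0372, and 101 in cluster 29, where it was 2.14. Of AG mouse 2, 25 of 125 were in cluster 12, at 8.36, and 100 in cluster 30, found in that mouse alone, at 3.83. In AG mouse 1, 166 of 171 were in cluster 12, at 2.52. Keratinocytes with stress keratins, present in number in AG mouse 2 and in small numbers in 3 other mice with antigen, held Cxcl9 at 7.07 and 4.55 in AG and 5.60 and 4.80 in AG_CPI. Macrophage markers in them summed to between 3.72 and 15.1 in those 4 mice, and the part of that RNA in the ligand level was not tested.

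**Figure D2:**
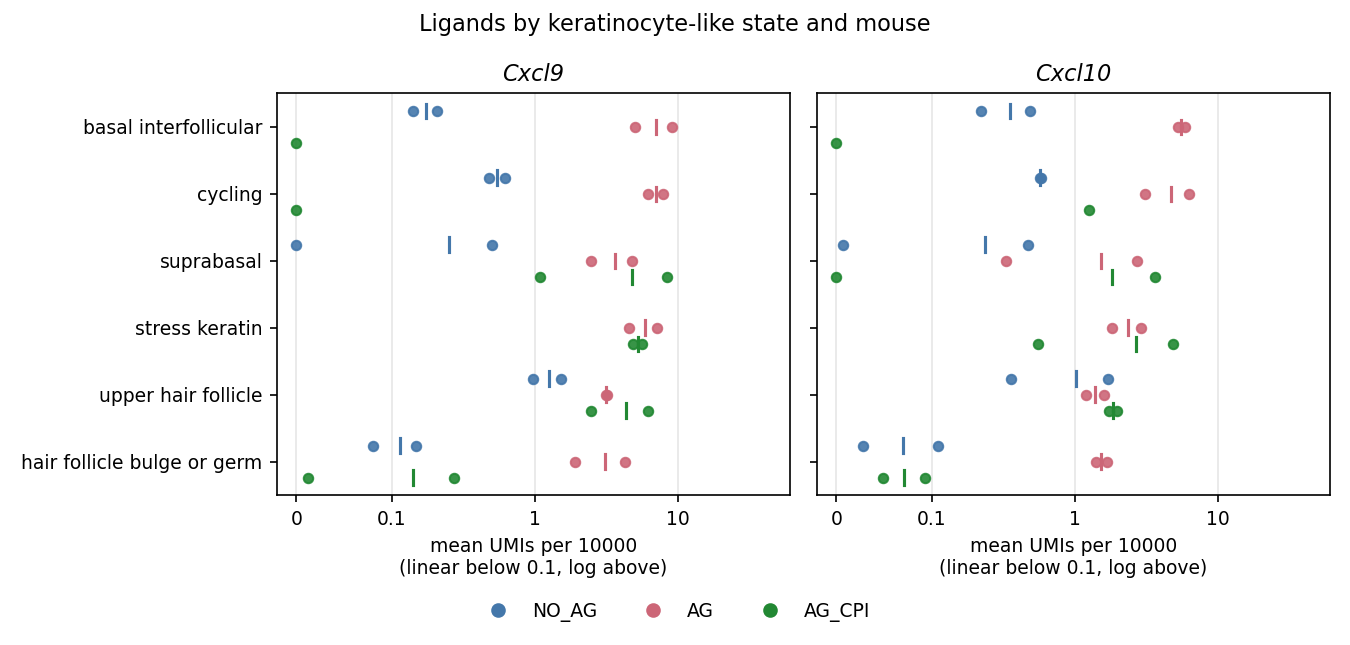
Mean Cxcl9 and Cxcl10 in UMIs per 10000 (horizontal axis, linear below 0.1 and logarithmic above) in 6 keratinocyte-like states with at least 10 cells in the mouse; points are mice and bars group means. Basal Cxcl9 shows a log2 difference of 4.57 between NO_AG and AG and upper hair follicle Cxcl9 one of 1.34, and in bulge or germ cells the AG_CPI mice sit with NO_AG.

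Bulge or germ cells were tested between AG_CPI and AG, and their values lay far apart. Cxcl9 in AG_CPI was 0.271 and 0.0122, with 2 and 1 UMIs in 14 and 64 cells, against 1.89 and 4.24 in AG. Cxcl10 was 0.0485 and 0.0925 in AG_CPI against 1.66 and 1.39 in AG. Values of AG_CPI thus overlapped NO_AG for both ligands, and lay below both AG mice. The AG_CPI against AG differences were -4.00 for Cxcl9 (SE 0.597, limma adjusted p = 0.224) and -3.37 for Cxcl10 (SE 0.382, limma adjusted p = 0.121). Neither passed, in a comparison where limma called 0.0% of 8204 genes and 1225 genes had an unadjusted p under 0.05. With AG_CPI mouse 1 left out they were -4.77 (adjusted p = 0.0207) and -3.16 (0.0221), and with AG_CPI mouse 2 left out -3.22 (0.00586) and -3.59 (0.00334), in fits that called 1241 and 2484 genes. Without AG mouse 1 or 2 neither passed (adjusted p = 0.792 and 0.48 for both ligands, 0 genes called). These cells lay in different clusters: AG mouse 1 was wholly in cluster 2, while 90 of 215 cells of AG mouse 2 and 45 of 64 of AG_CPI mouse 2 were in cluster 27, which had Gzma among its leading genes. Within cluster 2 Cxcl9 was 1.89 and 5.48 in AG and 0.291 and 0.0409 in AG_CPI (13 and 19 cells), and Cxcl10 was 1.66 and 1.23, then 0.0522 and 0.312. Within cluster 27 Cxcl9 was 2.52 in AG mouse 2 and 0 in AG_CPI mouse 2. In upper follicle cells as a whole Cxcl9 was 2.47 and 6.16 in AG_CPI, but their clusters differed. In cluster 5 it was 3.76 and 3.33 in AG and 3.61 and 5.35 in AG_CPI, while in cluster 8 it was 2.19 and 2.76 in AG and 0.717 and 0.264 in AG_CPI, below the 1.37 and 1.76 of NO_AG. Cluster 43, 40 cells of AG_CPI mouse 2 alone, held 11.9, and 1 upper follicle cell of that mouse held 218 of its 335 Cxcl9 UMIs in this state. The difference between both states in the AG_CPI against AG change was 4.19 for Cxcl9 (SE 0.920, limma adjusted p = 0.38) and 3.66 for Cxcl10 (SE 0.449, limma adjusted p = 0.38), where limma called 0.0% of 8667 genes. Both passed without AG_CPI mouse 1 (5.64 and 3.38, adjusted p = 0.0317) and without AG_CPI mouse 2 (2.74, adjusted p = 0.0149, and 3.93, adjusted p = 0.00526), in fits that called 790 of 8600 and 2250 of 8640 genes. Without AG mouse 1 or 2 neither passed (adjusted p = 0.919 and 0.804 for both ligands, 0 genes called). In such fits the mouse left alone in its group is assumed to vary like those of the other groups. Basal and cycling cells were too few in AG_CPI for a test: basal Cxcl9 was 0 in 21 cells (a count that allows up to 14.3% of cells with a UMI) and 1.49 in 9 cells, basal Cxcl10 0 and 0.992, cycling Cxcl9 0 in 6 and 0 in 11 cells (up to 50% and 27.3%), and cycling Cxcl10 0 and 1.25. Each of these lay below both AG mice. Macrophage markers in AG bulge or germ cells summed to 0.158 and 2.80, and in AG_CPI to 0 and 0.658.

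Macrophage-like cells carried more Cxcl9 per cell than any other class of 10 or more cells in both antigen groups, pericyte-like cells being too few to count. Mean Cxcl9 was 0.556 and 0.905 in NO_AG, 22.8 and 14.8 in AG, then 27.4 and 31.3 in AG_CPI. The 4 mice with antigen stood far above both NO_AG mice, and both AG_CPI mice above both AG mice. Group means were 0.730 ± 0.247 (SD, n = 2), 18.8 ± 5.61 (SD, n = 2) and 29.3 ± 2.76 (SD, n = 2). AG against NO_AG gave 5.0 (SE 0.303, limma adjusted p = 0.00745), in a comparison where 17.7% of 6794 genes were called and the median gene was 0.53 higher. AG_CPI against NO_AG gave 5.69 (limma adjusted p = 0.00264, 17.4% of genes called).

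This comparison rests on few cells in NO_AG. Those mice had 23 and 16 macrophage-like cells with 2 and 6 Cxcl9 UMIs, against 160, 537, 217 and 200 cells with 2644 to 3654 UMIs in the other 4. Most NO_AG macrophages (19 and 13) were Folr2+, a type of long-lived tissue macrophage, and Cxcl9 was at 0 in these, counts that allow up to 15.8% and 23.1% of cells with a UMI. The few Folr2+ cells of the AG mice, 15 and 14, held 1.98 and 0.242. All other macrophages held 3.20 and 4.83 in NO_AG, from 4 and 3 cells, and 24.9, 15.2, 27.8 and 32.6 in the mice with antigen. Left without AG mouse 1 or AG mouse 2, the AG against NO_AG differences of both ligands in macrophage-like cells had adjusted p-values of 0.0919 and 0.0837, and without AG_CPI mouse 1 or 2 those of AG_CPI against NO_AG had 0.122 and 0.107.

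Cxcl10 in macrophage-like cells was lower than Cxcl9 in every mouse but NO_AG mouse 1, and AG and AG_CPI mice were close. It was 0.827 and 0.151 in NO_AG, 6.16 and 5.45 in AG, then 4.67 and 5.18 in AG_CPI. The 4 mice with antigen lay close together, all above NO_AG. AG against NO_AG gave 4.04 (SE 0.539, limma adjusted p = 0.0134) and AG_CPI against NO_AG 3.83 (limma adjusted p = 0.0125). AG_CPI against AG gave -0.21 for Cxcl10 and 0.69 for Cxcl9 (SE 0.303), neither passing, since limma called 0.0% of genes in that comparison while 113 had an unadjusted p under 0.05. Among the macrophages that were not Folr2+, AG_CPI against AG gave 0.64 for Cxcl9 (SE 0.243, limma adjusted p = 0.425, 0.615% of 6505 genes called).

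The response to antigen differed between both classes for Cxcl9. The keratinocyte change minus the macrophage change, taken within each mouse, was -2.10 (SE 0.307, limma adjusted p = 0.044, 1.92% of 9158 genes called). For Cxcl10 it was -1.77 (SE 0.822, limma adjusted p = 0.241), and it passed without NO_AG mouse 1 (-3.01, adjusted p = 0.00415, 2275 of 9014 genes called) but not without NO_AG mouse 2 (-0.47, adjusted p = 0.505, 1464 of 8968 genes called). The Cxcl9 difference did not pass with summed UMIs (-2.02, adjusted p = 0.0556), with coarser clusters (-1.94, adjusted p = 0.0506) or without AG mouse 1 (-1.77, adjusted p = 0.19) or AG mouse 2 (-2.48, adjusted p = 0.237). It too rests on the 39 macrophages of the NO_AG mice. Macrophage-like cells were mostly Folr2+ in NO_AG (19 of 23 and 13 of 16) and seldom in AG (15 of 160 and 14 of 537). Against Folr2+ macrophage-like cells alone, in 4 mice, the keratinocyte difference was -0.20 for Cxcl9 (SE 1.02, limma adjusted p = 0.982). For Cxcl10 it was 1.12 (SE 1.38, limma adjusted p = 0.891), where limma called 0 of 8039 genes. The part of the shift in macrophage type in the -2.10 was not tested.

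Dendritic-like cells held Cxcl9 in every group. The level was 12.6 and 3.59 in NO_AG, 13.5 and 4.21 in AG, then 9.32 and 13.8 in AG_CPI, from 9 to 89 cells a mouse. Each group spanned much of the range of the others, so no group stood apart. AG_CPI against AG gave 0.54 (SE 0.415, limma adjusted p = 0.828, 0.179% of 3343 genes called). Without AG mouse 1 it was 1.36 and without AG mouse 2 it was -0.35. NO_AG could not be tested, as its mouse 2 had only 9 such cells. Cxcl10 in dendritic-like cells was far lower, 0.259 and 0.524 in NO_AG, 0.818 and 1.18 in AG, then 0.169 and 1.69 in AG_CPI.

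Fibroblast-like cells were rare, 15 and 7 in NO_AG, 13 and 6 in AG, then 1 and 3 in AG_CPI, and no test could be fitted. Cxcl9 was seen in 6 UMIs and 1 UMI in the AG mice and in 0 of 15 and 0 of 7 cells in NO_AG, counts that allow up to 20% and 42.9% of cells with a UMI. Cxcl10 was likewise at 0 in NO_AG and had 1 and 2 UMIs in AG. A mesenchymal cluster led by Crabp1, with 58, 39, 40 and 19 cells in NO_AG and AG, held Cxcl9 at 0 and 0, 0.0506 and 0.246, and Cxcl10 at 0 and 0, 1.33 and 0.125, the 1.33 coming from 24 UMIs in 1 cell. In each AG mouse Cxcl9 lay below the keratinocyte level in both classes. The AG against NO_AG change in keratinocyte-like cells minus that in the Crabp1-led cluster was 1.73 for Cxcl9 (SE 0.564, limma adjusted p = 0.812) and -0.24 for Cxcl10 (SE 0.753, limma adjusted p = 0.987), and neither passed. Endothelial-like cells of AG mouse 2 held Cxcl9 at 4.22 in 44 cells, but their keratinocyte markers summed to 174 against at most 39.1 in the other mice, and the part of that RNA was not tested. Melanocyte-like cells, led by Dct and Pmel, held Cxcl9 at 0.0617 and 2.19 in NO_AG and 6.45 and 8.03 in AG, beside keratinocyte markers that summed to 23.0 and 93.1, and 32.9 and 154. Langerhans-like cells, the resident antigen-presenting cells of the epidermis, held little, 0.01 and 0 in NO_AG and 0.117 and 0.875 in AG, and in AG_CPI 0 cells of either mouse were given this name, against 4 and 2 with finer or coarser clusters.

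**Figure D3:**
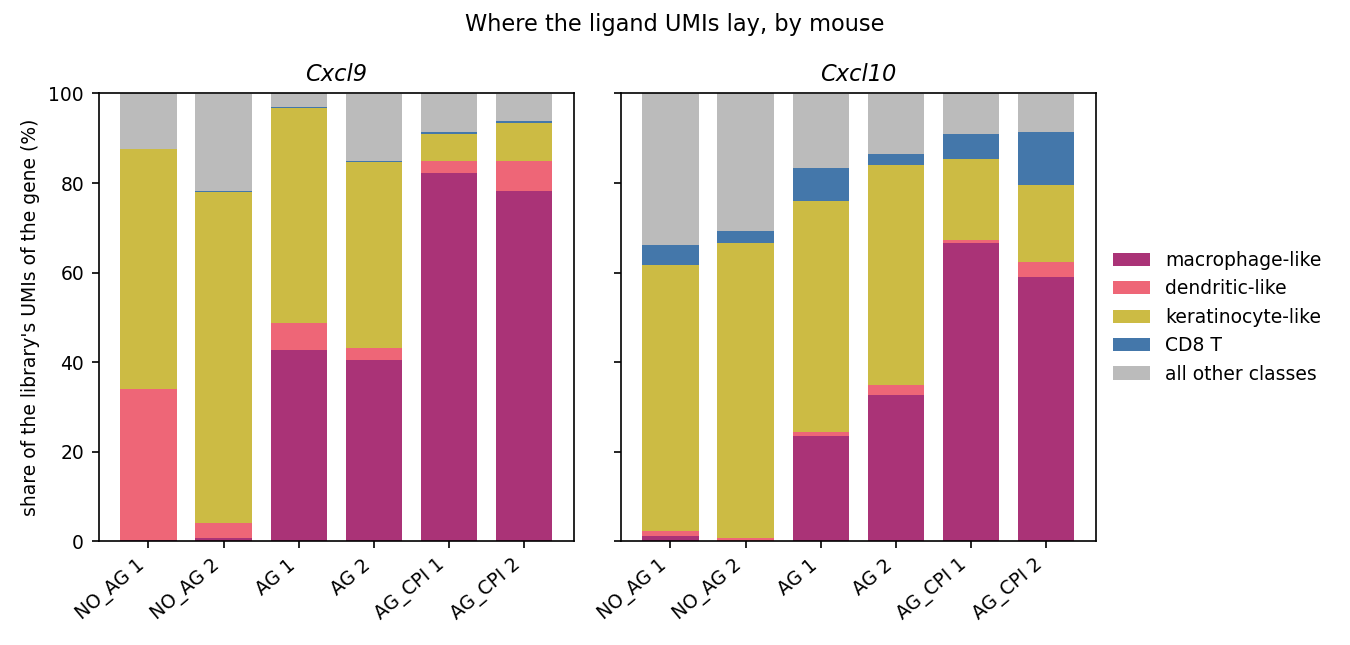
Share of each library's Cxcl9 and Cxcl10 UMIs (vertical axis, percent) by cell class in each mouse. Keratinocyte-like cells hold the largest share in NO_AG, keratinocyte-like and macrophage-like cells hold similar shares of Cxcl9 in AG, and macrophage-like cells hold 82.1% and 78.2% of Cxcl9 in AG_CPI.

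Counted over whole libraries, the keratinocyte share of ligand UMIs was lower and the macrophage share higher in AG_CPI than in the other groups. Of all Cxcl9 UMIs (763 and 843 in NO_AG, 6207 and 7805 in AG, 4110 and 4670 in AG_CPI), keratinocyte-like cells held 53.5% and 73.9%, 48.0% and 41.4%, and 5.94% and 8.48%. Macrophage-like cells held 0.262% and 0.712%, 42.6% and 40.4%, and 82.1% and 78.2%. For Cxcl10 the keratinocyte-like share was 59.4% and 65.7%, 51.7% and 49.0%, and 18.3% and 17.3%, and the macrophage-like share 1.19% and 0.112%, 23.6% and 32.7%, and 66.6% and 59.1%. Each share moves with the number of cells recovered: keratinocyte-like cells made up 47.0% and 45.4% of NO_AG cells, 32.3% and 43.3% of AG cells and 11.2% and 11.5% of AG_CPI cells. Macrophage-like cells made up 0.483% and 0.404% of NO_AG cells, 4.72% and 12.0% of AG cells and 12.7% and 9.22% of AG_CPI cells. Dendritic-like cells held 33.8% of the Cxcl9 UMIs of NO_AG mouse 1, from 29 cells, and 2.85% to 6.60% in the other mice. Cell numbers in a dissociated piece of skin and in the tissue cannot be told apart here.

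The ligands differed in their balance between sources. There were 1.06 to 2.08 Cxcl9 UMIs for each Cxcl10 UMI in keratinocyte-like cells of the 6 mice, and 2.89 to 5.89 in macrophage-like cells of the 4 mice with antigen. In CD8 T cells the ratio was at most 0.458. In both classes of the AG mice, cells with Cxcl9 held Cxcl10 more often by value: after thinning, 33.0% and 32.5% of Cxcl9-positive macrophage-like cells of the AG mice had a Cxcl10 UMI, against 15.7% and 15.4% of those without Cxcl9. In keratinocyte-like cells of the AG mice it was 26.1% and 32.0% against 4.69% and 11.6%. This was not so everywhere. In AG_CPI mouse 2 the keratinocyte shares were 4.0% and 5.0%, and in suprabasal cells of the AG mice they were 0% against 3.90% and 26.3% against 33.8%. In CD8 T cells of AG mouse 2 and both AG_CPI mice, 0 of 11 Cxcl9-positive cells each held Cxcl10, against 2.65%, 1.08% and 2.25% of the rest. Cells of 1 mouse are not replicates, and depth that remains after thinning is shared by both genes.

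T cells themselves held some Cxcl10. Its level in CD8 T cells was 0.922 and 0.205 in NO_AG, 0.709 and 0.433 in AG, then 0.175 and 0.314 in AG_CPI, with a UMI in 2.33% to 9.57% of cells. Regulatory T-like cells held 1.22 and 2.06, 1.46 and 0.653, and 0 and 0.919. NO_AG and AG overlapped in both classes. Gamma-delta T-like cells, in neither class, held 57 and 42 Cxcl10 UMIs in 528 and 367 cells of the NO_AG mice. In the AG mice they held 139 and 22 UMIs in 242 and 111 cells. In CD8 T cells both AG_CPI mice lay below both AG mice, a difference that did not pass (-0.98, SE 0.439, limma adjusted p = 0.923), and in regulatory T-like cells both lay below both NO_AG mice. Up to 32 UMIs of Cxcl10 lay in 1 CD8 T cell, and no CD8 T cell held over 3 of Cxcl9. Among CD8 T cells with a beta chain other than Trbv13-3, called other CD8 T cells below, Cxcl10 fell in AG_CPI, from 0.747 and 1.41 in AG to 0.0811 and 0.285 (-2.14, SE 0.480, limma adjusted p = 0.0184), but that rests on 3 and 27 UMIs in AG_CPI, and it did not pass without AG mouse 2 (-1.76, adjusted p = 0.188) or without AG_CPI mouse 1 (-1.60, adjusted p = 0.673) or 2 (-2.69, adjusted p = 0.066), nor after thinning (-1.86, adjusted p = 0.16), with summed UMIs (-1.74, adjusted p = 0.105) or with no filter (adjusted p = 0.259).

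**Figure D4:**
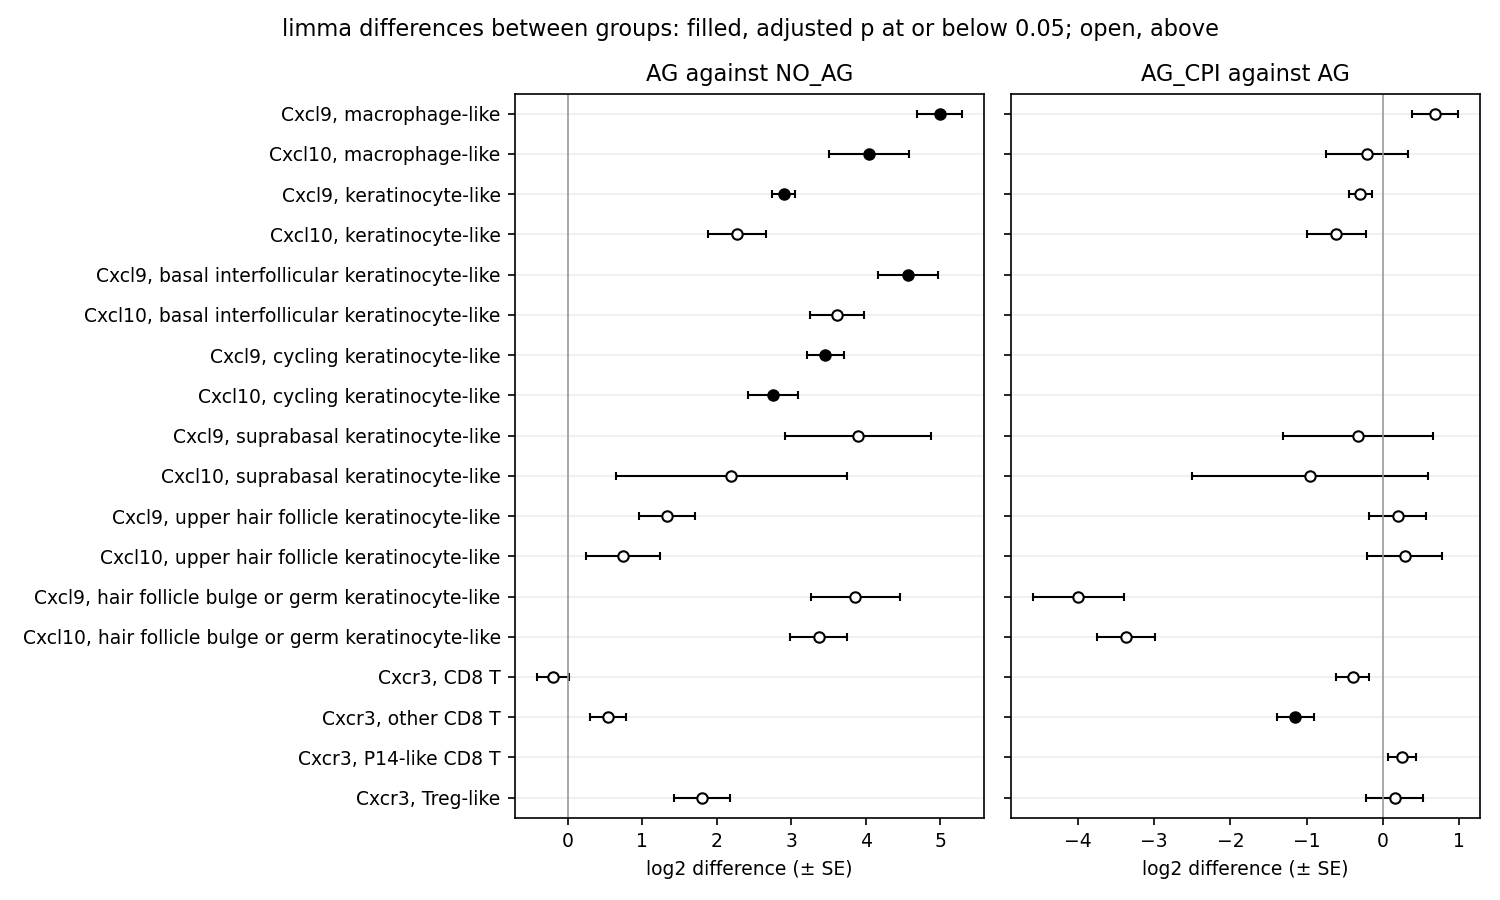
limma differences (horizontal axis, log2 scale, bars ± SE) of AG against NO_AG and AG_CPI against AG for the ligands by class and for Cxcr3 in T cells; filled points had an adjusted p at or below 0.05, open points did not. Filled points on the left are ligand rises in keratinocyte-like and macrophage-like cells, and Cxcr3 in other CD8 T cells, at -1.15, is the filled point on the right.

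Genes known to respond to the same signals were higher in keratinocyte-like cells of the AG mice too. Of 11 interferon-gamma inducible genes tested, 6 rose and 0 fell, where 0.558% of all genes were called, among them the guanylate-binding protein Gbp2 (2.41, SE 0.214, limma adjusted p = 0.00293), the immunoproteasome subunit Psmb9 (1.27), Igtp (1.61) and Gbp7 (1.74). Of 9 type I interferon inducible genes 7 rose, including Rtp4 (2.92), Oasl2 (3.04), the ubiquitin-like modifier Isg15 (3.65) and Zbp1 (2.14). The median was 1.61 over the first list and 2.42 over the second, against -0.04 over all genes. Among genes for interferon and TNF receptors and signalling, the transcription factors Stat2 (1.29) and Irf7 (2.09) rose. Of 10 other chemokines, Ccl8, a monocyte attractant, rose (3.26, SE 0.154, limma adjusted p = 0.000261). In AG_CPI against AG none of these lists had a gene that limma called in keratinocyte-like cells, where 811 of 8244 genes had an unadjusted p under 0.05. All 11 interferon-gamma and all 9 type I genes had a value below 0, with medians of -0.66 and -0.99 against -0.06 over all genes, and 7 of the 11 and 8 of the 9 had an unadjusted p under 0.05.

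Macrophage-like cells of the AG mice showed calls in the same lists against NO_AG, within the limits given above for that comparison, where 17.7% of all genes were called and the median gene was 0.53 higher. Of 16 interferon-gamma inducible genes 8 rose, with Nos2, the inducible nitric oxide synthase, at 2.77, Gbp2 at 1.79, H2-Ab1 at 1.85 and Psmb9 at 1.47. Of 15 type I interferon inducible genes 10 rose, among them Oas1a (2.17), Isg15 (3.65), Ifi44 (1.88) and Zbp1 (2.82). Of 5 cytokines that induce the ligands 3 rose, Il27 (1.45), Tnf (2.30) and Il1b (2.54). Of 10 other chemokines 5 rose, among them Cxcl16 (3.04), Cxcl2 (1.49) and Ccl4 (3.48). Ccl8 fell by 3.57 in macrophages, the opposite direction from keratinocytes. It is among the leading genes of the Folr2+ macrophages, which were 19 of 23 and 13 of 16 macrophage-like cells in NO_AG but 15 of 160 and 14 of 537 in AG. Of 22 signalling genes 5 rose and 1 fell, a share of calls not far from that of all genes, with Irf7 at 3.14, Socs1, a brake on cytokine signals, at 3.21, Tnfrsf1a at 1.76 and Ifnar1 at 1.70. Among macrophages that were not Folr2+, 0.615% of all genes were called in AG_CPI against AG. There 1 of 16 interferon-gamma inducible genes rose, Nos2 (1.11), and 2 of 14 type I genes fell, Isg15 (-1.08) and Ifit1 (-1.15). Of 4 cytokines 1 fell, Tnf (-1.30), and of 10 other chemokines Ccl8 (2.72) and Cxcl2 (0.97) rose and Ccl4 (-1.38) fell.

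Cxcr3, the receptor, was found mainly in T cells and in the Gzmc-led lymphocytes. In CD8 T cells its level was 1.36 and 1.96 in NO_AG, 1.54 and 1.07 in AG, then 0.905 and 1.01 in AG_CPI. Both AG_CPI mice were below all the others, while AG and NO_AG overlapped. The group means were 1.66 ± 0.421 (SD, n = 2), 1.30 ± 0.333 (SD, n = 2) and 0.957 ± 0.0743 (SD, n = 2). No comparison passed: AG against NO_AG gave -0.20 (SE 0.219, limma adjusted p = 0.698, 2.58% of 7252 genes called), AG_CPI against AG -0.40 (adjusted p = 0.998, 0.0827% called) and AG_CPI against NO_AG -0.60 (adjusted p = 0.172, 3.79% called). Without AG mouse 2 the first value turned to 0.04, and without NO_AG mouse 2 to 0.03. CD8 T cells, 115 and 370, 971 and 767, then 1118 and 1210, lay in different clusters by group. Cluster 1 held 90 and 294 of them in NO_AG, 403 and 129 in AG, then 59 and 75 in AG_CPI. Cluster 0 held 0 and 10, 280 and 122, then 750 and 858. Within cluster 0 Cxcr3 was 0.592 and 0.864 in AG and higher in AG_CPI, 0.964 and 0.929. Within cluster 1 it was lower in AG_CPI, 2.49 and 2.57, then 1.22 and 1.82. Within clusters 9 and 11 these groups overlapped. The part of these shifts in the class level was not tested. A Cxcr3 UMI was found in 29.6% and 41.9%, 32.0% and 24.5%, and 17.5% and 23.3% of CD8 T cells, and after thinning in 18.3% and 24.1%, 20.4% and 14.2%, and 12.6% and 13.6%. The share in keratinocyte-like cells was 0.0446% to 1.55%.

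**Figure D5:**
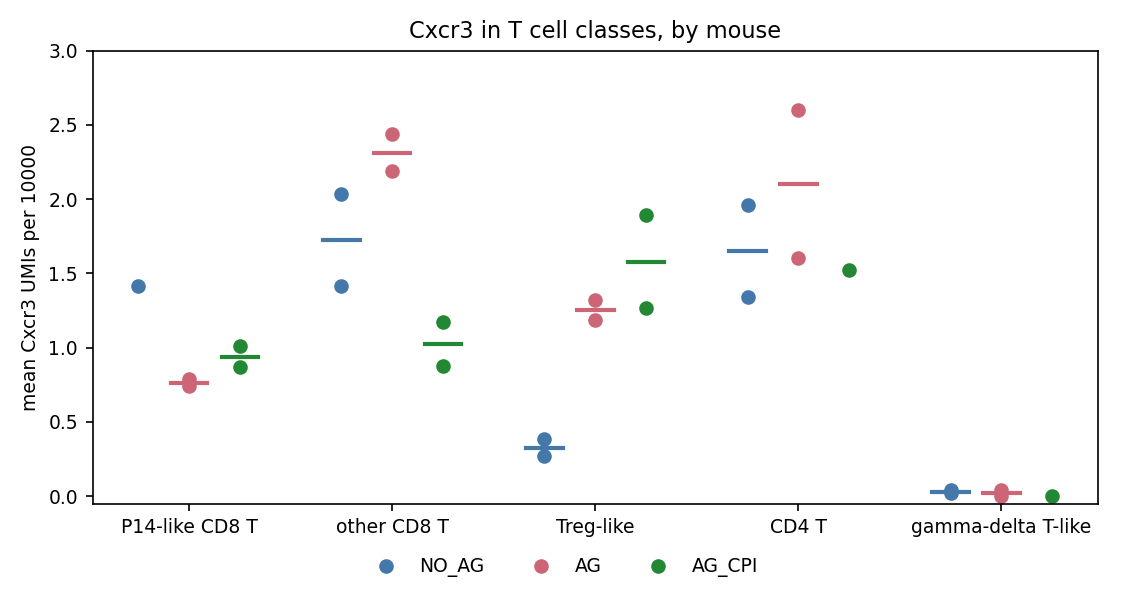
Mean Cxcr3 in UMIs per 10000 (vertical axis, linear) in 5 T cell classes with at least 10 cells in the mouse; points are mice, bars group means. Other CD8 T cells are highest in AG at 2.44 and 2.19 and lower in AG_CPI, P14-like cells differ little between AG and AG_CPI, and regulatory T-like cells are lowest in NO_AG.

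The CD8 T cells were split by receptor beta segment, since P14 cells carry Trbv13-3. Cells with a UMI of that segment are called P14-like: 2 and 12 in NO_AG, 469 and 462 in AG, then 651 and 817 in AG_CPI. A host cell that uses Trbv13-3 falls into the same class, and the near copies of this segment (Trbv13-1, Trbv13-2) could share reads with it. A P14 cell with a UMI of another segment and none of Trbv13-3 would fall into the class of other CD8 T cells. In P14-like cells Cxcr3 was 0.788 and 0.742 in AG and 0.869 and 1.01 in AG_CPI, both AG_CPI mice a little higher (0.26, SE 0.185, limma adjusted p = 0.645, 1.1% of 7170 genes called). P14-like cells also shifted between clusters. Cluster 0 held 49.0% and 17.5% of them in AG and 69.7% and 79.9% in AG_CPI, and cluster 11 held 30.1% and 41.8%, then 10.1% and 6.24%. Within cluster 0 Cxcr3 was 0.558 and 0.784, then 0.928 and 1.00, and within cluster 11 it was 1.17 and 0.669, then 0.870 and 0.929. The other CD8 T cells, 78 and 290, 365 and 126, and 136 and 194, held 1.41 and 2.04 in NO_AG, 2.44 and 2.19 in AG, then 0.878 and 1.18 in AG_CPI.

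In these other CD8 T cells, taken as a class, Cxcr3 was lower in AG_CPI than in AG. Both AG_CPI mice lay below both AG mice and below both NO_AG mice. AG_CPI against AG gave -1.15 (SE 0.245, limma adjusted p = 0.0137, 1.47% of 6612 genes called), while AG against NO_AG gave 0.54 (SE 0.245, limma adjusted p = 0.642, 0.348% of genes called). The fall did not pass with no filter (-1.15), after thinning (-1.21, limma adjusted p = 0.0562) or with every CD8 T cell without Trbv13-3 counted (-0.90, limma adjusted p = 0.121). Nor did it pass without AG mouse 1 (-1.04), AG_CPI mouse 1 (-0.97) or AG_CPI mouse 2 (-1.34). It moved with the clusters these cells lay in: cluster 1, led by Cd8a, Cd8b1 and Ltb, held 88.2% and 59.5% of them in AG and 12.5% and 11.9% in AG_CPI. Within cluster 1 the level was 2.53 and 2.90 in AG and, from 2 and 9 UMIs, 0.628 and 1.44 in AG_CPI. Within cluster 9, led by Gzma and Ccl4, it was 2.59 and 1.11 in AG and 0.590 and 1.17 in AG_CPI. Cluster 0, with 2.47% and 14.3% of these cells in AG and 48.5% and 30.9% in AG_CPI, held 1.15 and 1.67, then 0.823 and 0.806. Cluster 11, with 28.7% and 33.5% of them in AG_CPI, went the other way by value, from 0.547 and 0 (4 and 7 cells) in AG to 1.21 and 1.36.

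The AG_CPI against AG change differed between both kinds of CD8 T cell. P14-like minus other was 1.41 for Cxcr3 (SE 0.222, limma adjusted p = 0.000234), in a fit of 5 mice where 4.69% of 7351 genes were called. It passed in all 8 alternatives run for it (1.11 to 1.60). Alternatives that change how CD8 T cells are gated or split, such as counting every CD8 T cell without Trbv13-3, were not run for it. The 4 fits without 1 mouse gave 1.33 to 1.49 with 1 residual degree of freedom, and their p-values are not given. NO_AG mouse 2 entered this fit with 12 P14-like cells. For Cxcl10 the same difference was 2.04 (SE 0.527, limma adjusted p = 0.0234), and it did not pass after thinning (1.26, adjusted p = 0.396) or with summed UMIs (1.62, adjusted p = 0.0966). Without 1 mouse it lay between 0.77 (without AG mouse 2) and 3.32 (without AG mouse 1). Taken over the 4 mice with antigen, Cxcr3 in P14-like cells was below that of other CD8 T cells in 4 of 4 mice (in AG_CPI mouse 1 only just, and in 3 of 4 under several alternatives, thinning and summed UMIs among them), by -0.79 (SE 0.251, limma adjusted p = 0.45, 0.495% of 7068 genes called), which did not pass. That fit had no term for group, so its value averages over AG and AG_CPI, between which the difference changed by 1.41. By level the gap was wide in both AG mice and narrow in both AG_CPI mice, and it was not tested within a group.

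Regulatory T-like cells, with the defining gene Foxp3 at 3.33 to 6.35 in every mouse, held more Cxcr3 with antigen by value. The level was 0.270 and 0.382 in NO_AG, 1.18 and 1.32 in AG, then 1.27 and 1.89 in AG_CPI. All 4 mice with antigen lay above both NO_AG mice, from 3 and 5 UMIs in NO_AG and 12 to 96 in the others. AG against NO_AG gave 1.80 (SE 0.377, limma adjusted p = 0.125, 0.0363% of 5510 genes called) and did not pass. The share of these cells with a UMI was 6.12% and 11.1%, 23.1% and 25.0%, and 29.0% and 33.0%. The change in CD8 T cells minus that in regulatory T-like cells was -2.00 (SE 0.358, limma adjusted p = 0.0881).

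The other lymphocytes spanned the range from near 0 to the level of CD8 T cells. CD4 T cells held Cxcr3 at 1.34 and 1.96 in NO_AG and 2.60 and 1.60 in AG (0.42, SE 0.388, limma adjusted p = 0.742, 0.377% of 1855 genes called). Gzmc-led lymphocytes, an innate-like class, held 1.60 and 0.972 in NO_AG and 1.24 and 0.667 in AG. Gamma-delta T-like cells held at most 0.0453 and group 2 innate-like cells at most 0.257. In the NO_AG mice the order by group mean was other CD8 T, CD4 T, Gzmc-led, regulatory T-like and then gamma-delta T-like cells; the first 3 overlapped between mice, and regulatory T-like cells lay below all 3 and above gamma-delta T-like cells. This order held for NO_AG: in AG regulatory T-like cells overlapped Gzmc-led lymphocytes, and in AG_CPI both regulatory T-like values lay above both values of other CD8 T cells. Plasmacytoid dendritic-like cells, 8 to 18 a mouse with antigen, held 3 Cxcr3 UMIs in each of 3 mice and 0 in AG_CPI mouse 1. Of all Cxcr3 UMIs, CD8 T cells held 24.7% and 66.5% in NO_AG, 63.6% and 56.4% in AG, then 90.2% and 79.0% in AG_CPI, with Gzmc-led lymphocytes at 39.7% in NO_AG mouse 1.

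Other receptors and partners of Cxcr3 gave few calls. In CD8 T cells, AG against NO_AG, limma called 0 of 7 other chemokine and egress receptors and 0 of 14 regulators and partners of Cxcr3, with an unadjusted p under 0.05 for 2 genes of each list. Of 6 other chemokines 3 rose there, Ccl5 (2.00), Ccl4 (2.80) and Ccl3 (4.15), ligands that T cells make themselves, where 2.58% of all genes were called. Of the 4 cytokines that induce the ligands and could be tested in CD8 T cells, limma called 0 (1 with an unadjusted p under 0.05), with Ifng, the gene of interferon-gamma, at 0.82 (SE 0.219, limma adjusted p = 0.0821) and Ltb at -0.25. In P14-like cells, AG_CPI against AG, where 1.1% of all genes were called, 1 of 6 receptors rose, Ccr2, which binds monocyte chemokines (1.56, SE 0.205, limma adjusted p = 0.00508). Of 14 regulators 1 rose, Il12rb2 (1.03), a chain of the interleukin-12 receptor. Of 6 other chemokines 3 fell in P14-like cells, Ccl5 (-1.04), Ccl3 (-1.92) and Ccl4 (-1.15). In other CD8 T cells, where 1.47% of all genes were called, 2 of 6 rose, Ccl5 (1.55) and Ccl4 (1.06), limma called 0 of 7 receptors and 0 of 14 regulators (4 and 3 with an unadjusted p under 0.05), and 1 gene each fell of 4 cytokines (Tnf, -1.62), 21 signalling genes (Socs1, -1.41) and 9 type I interferon inducible genes (Ifit3, -2.35).

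The genes whose pattern was most like each member were sought over 62 class-by-mouse units of 16 classes among 10706 genes, as a description. Units of 1 library share depth and free RNA. For Cxcl9 they were Oasl2 (Pearson r 0.847), Tgfbi (0.816), Dnase1l3 (0.806), Oas1g (0.801) and Cxcl16 (0.798). For Cxcl10 they were Irf7 (0.639), Gbp2 (0.639), Isg15 (0.625), Irgm1 (0.599) and Tcirg1 (0.598), all at a lower r than for Cxcl9. For Cxcr3 they were the T cell genes Cd6 (0.908), Trbv13-2 (0.896), Sh2d1a (0.895), Cd28 (0.892) and Gimap3 (0.891). With a pseudocount of 0.5 the order differed: Tgfbi came first for Cxcl9, and Anxa4 and Slamf8 took the place of Oas1g and Cxcl16. For Cxcl10 Fcgr1 took the place of Irgm1, and for Cxcr3 Inpp4b, Trac and Tbx21 that of Trbv13-2, Sh2d1a and Gimap3. The ligands correlated with each other at 0.583.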

How the data were processed

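The 6 deposited tables hold, per the labels, 1 mouse each. Values are log10 of 1 plus UMIs per 10000 UMIs of a cell, on which the authors' scaling is seen in the values themselves: 10 to the deposited log10 value, minus 1, rescaled by each cell's total, gave whole UMIs for 100% of values (tolerance 0.02). Reads were processed with Cell Ranger 3.1 on mm10, per the submitters' processing notes; annotation and filters are not given in the sources used here. Every cell holds 1501 to 14995 UMIs, and 95.4% to 96.7% of them lie in the 16158 genes. Cells with under 200 genes or over 20% mitochondrial UMIs (51) and Scrublet doublets (661, 0.8% per 1000 cells of a library) were removed. Clusters came from scanpy 1.11.5 and leidenalg 0.10.2 (2000 variable genes, 30 components, 15 neighbours, resolution 1).

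Class means per mouse (10 cells or more) were scaled by TMM factors, log2-transformed with a pseudocount of 0.1 and fitted with limma 3.58.1 (trend) in R 4.3.3, filtered at a mean of 0.1 and 10 UMIs in 2 libraries, with Benjamini-Hochberg adjustment over all genes and a threshold of 0.05. An exact permutation test of 2 against 2 cannot go below 0.333. Levels in the text are unscaled class means. Intervals behind shares of cells (95%, Clopper-Pearson) and the limits of a count of 0 (3 counts) cover counting error only. CD8 T cells are T cells with a Cd8a or Cd8b1 UMI and no Cd4 UMI. The fit was also run on simulated UMIs for keratinocyte-like and other CD8 T cells, and no result here rests on that run. It drew UMIs per class and mouse, so it did not copy UMIs concentrated in single cells or shifts between clusters. Alternatives changed 1 choice at a time, apart from the gene and mitochondrial limits, which moved together (500 genes and 10%).

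The 3 genes and all lists were chosen with earlier results of these data known. Named genes are the members, up to 4 called genes of each list with the smallest p (where none was called, the rule allowed the 2 with the largest level), and the 5 most similar genes of each member. 1 signalling gene that the rule names is not reported here. The planned differences of keratinocytes from fibroblast-like and endothelial-like cells could not be fitted for lack of cells; those from macrophages and between T cells or keratinocyte states, and fits without clusters mostly from 1 mouse, were added after seeing the data.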

Additional observations from a re-analysis of the deposited data

Results flagged for a closer look

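The change of Cxcl9 from NO_AG to AG differed between cell classes: keratinocyte-like minus macrophage-like was -2.10 (SE 0.307, limma adjusted p = 0.044), a test of the difference itself. It stands on 8 Cxcl9 UMIs in 39 macrophage-like cells of the NO_AG mice. Against Folr2+ macrophage-like cells alone the difference was -0.20 (SE 1.02, limma adjusted p = 0.982).

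The change of Cxcr3 from AG to AG_CPI differed between P14-like and other CD8 T cells by 1.41 (SE 0.222, limma adjusted p = 0.000234). Cxcl10 differed in the same test by 2.04 (SE 0.527, limma adjusted p = 0.0234). Summed macrophage markers were 3.59 and 6.33 in P14-like cells of the AG mice and 5.58 and 3.67 in AG_CPI, and in other CD8 T cells 0.55 and 1.63, and 3.98 and 2.77; the list includes Ccr2 and Plac8, which T cells also express. Summed keratinocyte markers in other CD8 T cells were 9.57 and 7.99 in AG and 3.0 and 4.21 in AG_CPI. The part of such RNA in the result was not tested.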

How the results depend on the processing

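Over 36 results on the 3 genes, 369 of 393 alternatives other than leaving out a mouse kept direction and side of the threshold, 14 lost the call, 10 gained it and 0 turned the direction. Of 144 fits without 1 mouse, 107 kept both, 18 lost the call, 15 gained it and 4 turned; the cause was not tested. Deviations of same-numbered mice from their group means correlated weakly (0.135, 0.0616 and 0.0302 in keratinocyte-like cells, -0.0996, 0.00557 and -0.228 in CD8 T cells). With 2 mice per group these values cannot tell whether same-numbered mice were handled together. With the replicate block, Cxcl10 in keratinocyte-like cells, AG against NO_AG, passed (2.28, adjusted p = 0.0219), as with finer clusters (2.27), summed UMIs (2.36) and without the 10 clusters mostly from 1 mouse (2.03), and without 1 mouse ranged from 1.91 to 2.66. The block moved genes called in that comparison from 46 to 80. Macrophage differences without 1 mouse ranged from 4.68 to 5.39 for Cxcl9 and 3.13 to 4.92 for Cxcl10. Cxcr3 in CD8 T cells, AG against NO_AG, ranged from -0.44 to 0.04, turning without AG mouse 2 (0.042) or NO_AG mouse 2 (0.03). Cxcr3 in other CD8 T cells, AG_CPI against AG, did not pass with no filter (-1.15), with cells lacking Trbv13-3 (-0.90) or thinned (-1.21), and ranged from -1.34 to -0.97 without 1 mouse. The Cxcl9 difference between keratinocytes and macrophages did not pass with summed UMIs (-2.02) or coarser clusters (-1.94), and ranged from -2.48 to -1.77. Cxcl10 in upper follicle cells, AG against NO_AG, turned to -0.23 without NO_AG mouse 1 (1.71 at the other end), and Cxcl9 in dendritic-like cells, AG_CPI against AG, to -0.35 without AG mouse 2 and 1.36 without AG mouse 1. Counts of called genes moved by over 1.5 times in many fits: 46 in keratinocyte-like cells ranged from 4 (no filter) to 197, 1203 in macrophage-like cells from 0 to 3716, 187 in CD8 T cells from 25 to 573, 97 in other CD8 T cells from 17 to 129 and 79 in P14-like cells from 0 to 425. The others were 3 (0 to 14) and, against NO_AG, 71 (4 to 183) in keratinocyte-like cells of AG_CPI, 0 (0 to 1) and 1182 (0 to 3671) in macrophage-like cells of AG_CPI, 6 (1 to 25) in CD8 T cells of AG_CPI, 2 (0 to 12) in regulatory T-like, 11 (1 to 4623) in basal, 31 (6 to 1778) in cycling, 2 (0 to 7) in suprabasal, 29 (1 to 50) in upper follicle and 6 (0 to 17) in dendritic-like cells, and in bulge or germ cells 0 (0 to 35) in AG and 0 (0 to 2484) in AG_CPI. Fits with the block or without 1 mouse in classes with fewer than 6 mice (basal, cycling, dendritic-like, P14-like) have 1 residual degree of freedom; they are counted above, but their p-values are not given. Thinning moved 44 of 54 shares of cells outside their counting interval.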
